A study of Mus musculus with 26 samples.

Results

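The solute carriers described here are the genes whose symbol begins with Slc, without the glucose, sodium-calcium, carnitine-acylcarnitine and fatty acid carriers Slc2a1, Slc2a4, Slc8a1, Slc25a20 and Slc27a1. They were found by symbol in the probe annotation, which assigned 180 probe sets of 149 such genes out of 12488 probe sets and 8251 genes on the array. The 5 genes left out held 8 further probe sets, and 1 probe set that names several solute carriers was not used. Each gene was placed in a class by the substrate of its family, whether or not the gene's own product transports it. The families are those of amino acids and peptides (26 genes), inorganic ions (19), metal ions (16), and nucleosides and nucleotide sugars (12). Further families are those of organic ions, amines and cofactors (42 genes), sugars and polyols (8) and lipids (4). Another 19 genes are carriers of the mitochondrial inner membrane or their relatives. The remaining 3, Slc9a3r1, Slc9a3r2 and Slc4a1ap, are scaffold and partner proteins named after a carrier and do not themselves transport a solute.

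RNA came from hearts of mice that had undergone transverse aortic constriction (TAC), in which a ligature narrows the aorta and the left ventricle has to work against a raised pressure, or a sham operation. Sham and TAC hearts were compared at 48 h (4 and 5 arrays), 10 d (4 and 4) and 3 wk (4 and 5), 26 arrays in all. The labels give no strain, sex, age, genotype or pressure gradient, and do not state whether the arrays of a group are separate animals, so the p-values reflect only how far these arrays spread. In whole heart, fewer cells of a type and less RNA per cell cannot be told apart.

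Solute carriers are membrane proteins that move small molecules by facilitated diffusion, by exchange of one solute for another, or by coupling to the sodium, proton or potassium gradient across the membrane. In heart muscle they take up creatine, taurine, carnitine, lactate and amino acids, extrude acid or base, and keep cell chloride and volume. The mitochondrial carriers exchange ATP for ADP and pass phosphate, malate and other metabolites through the inner membrane, so that oxidative phosphorylation can supply the contractile proteins.

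Of the 149 genes, 95 had a probe set bright enough to be tested, which means a deposited linear intensity above the pooled median of 880.1 on at least 4 arrays. Among all 8251 genes, 5564 were tested. The limit was passed on all arrays by 54 of the 95 members. Slc12a5 was the 1 member above it on sham arrays but no TAC array, and 0 were above it on TAC arrays alone. Sham arrays by themselves would not have reached 4 for Slc30a5 (10 TAC and 2 sham arrays above the limit), Slc39a9 (5 and 1) and Slc4a1ap (4 and 2). The same holds for Slc25a45 (5 and 3) and Slc5a11 (4 and 3). TAC arrays by themselves would not have reached 4 for Slc12a5 (0 and 6) and Slc16a8 (3 and 4). The 54 untested genes include all 4 of the lipid class (Slc27a2, Slc27a3, Slc27a4 and Slc27a5), the kidney sodium and chloride cotransporters Slc12a1 and Slc12a3, the dopamine transporter Slc6a3, the bile acid carriers Slc10a1 and Slc10a2, the intestinal glucose carrier Slc5a1 and the cystine carrier Slc7a11. Over all members, 20.7% of values lay at or below the floor of 167.9 (7.39 on the log2 scale), and 5 probe sets did so on all arrays. The floor was set at the 20th percentile of all values, so this share is near that of the whole array. For these dim genes the arrays give little information on level or change.

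Few solute carriers differed between TAC and sham hearts, and their share was near that of all genes. A gene was called at an adjusted p under 0.05, by limma with Benjamini-Hochberg adjustment over 7297 tested probe sets. At 48 h, 0 of 95 members were called, against a background of 0.0539% of all 5564 tested genes, and 4 had an unadjusted p under 0.05 (4.21%, against 6.43% of all genes). At 10 d, 4 of 95 were called (4.21%, background 5.03%), of which Slc23a2 was higher and Slc12a5, Slc7a2 and Slc4a3 were lower in TAC, and 17 had an unadjusted p under 0.05 (17.9%, against 21.6%). Of the 4, Slc12a5 was tested only through sham arrays, so its call is given as a description. At 3 wk, 3 of 95 were called (3.16%, background 4.82%), of which Slc6a8 was higher and Slc22a12 and Slc23a3 were lower, and 19 had an unadjusted p under 0.05 (20%, against 20%). No gene was called at more than 1 duration.

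Rises and falls of the solute carriers were roughly balanced at every duration. The median log2 change (TAC minus sham) over the 95 members was 0.05 at 48 h, -0.03 at 10 d and 0.01 at 3 wk, beside -0.01, -0.02 and -0.00 over all tested genes. The sign at 10 d depended on the scaling, with a median of 0.0034 when each array was centred on its median. A change smaller than 0.5 on the log2 scale was measured for 88, 76 and 81 of the 95 members at 48 h, 10 d and 3 wk. These are 92.6%, 80% and 85.3%, beside 94.1%, 84.7% and 86.3% of all genes. Without regard to sign, the median change was 0.14, 0.20 and 0.23 for members and 0.13, 0.20 and 0.20 for all genes. The standard error of a member's log2 change had a median of 0.20 at 48 h, 0.21 at 10 d and 0.20 at 3 wk, and reached 0.72 and 0.75 for the least precise members. TAC and sham arrays did not overlap for 3 members at 48 h, 6 at 10 d and 7 at 3 wk. These are 3.16%, 6.32% and 7.37% of members, beside 2.48%, 16% and 8.91% of all genes, so the member share was lower at 10 d.

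**Figure D1:**
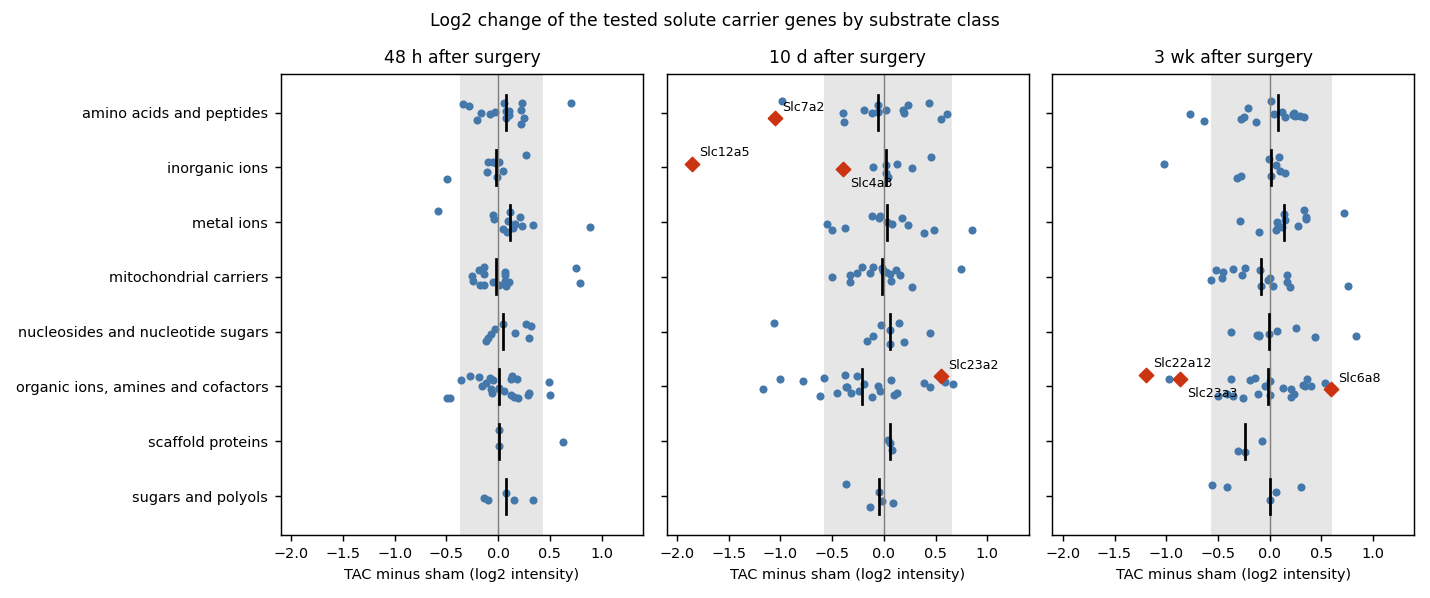
Log2 change (TAC minus sham, horizontal axis) of each of the 95 tested solute carrier genes by substrate class (rows) at 48 h, 10 d and 3 wk, with called genes as named red diamonds, other genes as blue points, class medians as black bars, and the 5th to 95th percentile of all 5564 tested genes as a grey band. At each duration 83 of the 95 members lie inside the band, and 0, 4 and 3 are called.

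In the plot of changes by substrate class, the called genes stand in the classes of inorganic ions, amino acids and organic ions. The shares below are to be read against the 5.03% of all genes called at 10 d and the 4.82% at 3 wk. Of the 9 tested carriers of inorganic ions 2 were called at 10 d, both lower, and 1 of these, Slc12a5, was tested only through sham arrays. Of the 16 carriers of amino acids and peptides 1 was called at 10 d, lower. Of the 24 carriers of organic ions, amines and cofactors 1 was called at 10 d and 3 at 3 wk. None of the 16 tested mitochondrial carriers, 13 metal ion carriers, 9 nucleoside and nucleotide sugar carriers, 5 sugar carriers and 3 scaffold proteins was called at any duration; their members with an unadjusted p under 0.05 numbered 2 at 48 h (both metal ion carriers), 1, 3, 2, 1 and 0 at 10 d, and 3, 3, 2, 2 and 0 at 3 wk. The median change of the organic ions, amines and cofactors class at 10 d was -0.22, with 16 of 24 genes below 0 and 8 above. It was -0.13 with scan day as a block and within the main scan day, beside -0.12 for the mitochondrial carriers in the same fits.

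Promoter sequence is shown for Slc4a3 and Slc23a2, the members with the opposite calls at 10 d whose arrays did not overlap and whose intensity stayed above the limit on every array. Each window is the 250 bases before a RefSeq start site on GRCm38.p6, on the gene's own strand, and Slc23a2 has 2 start sites whose windows share some bases. Capitals mark the GC box GGGCGG and the CCAAT box CCAAT, read on both strands, and no binding was measured in these hearts.
Slc4a3, chr1:75546212-75546461, plus strand: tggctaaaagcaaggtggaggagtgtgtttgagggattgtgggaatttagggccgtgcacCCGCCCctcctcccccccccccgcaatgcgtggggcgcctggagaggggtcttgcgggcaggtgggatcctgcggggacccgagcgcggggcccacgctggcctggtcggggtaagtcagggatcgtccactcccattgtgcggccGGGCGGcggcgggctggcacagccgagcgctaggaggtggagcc
Slc23a2, upstream start, chr2:132145321-132145570, minus strand: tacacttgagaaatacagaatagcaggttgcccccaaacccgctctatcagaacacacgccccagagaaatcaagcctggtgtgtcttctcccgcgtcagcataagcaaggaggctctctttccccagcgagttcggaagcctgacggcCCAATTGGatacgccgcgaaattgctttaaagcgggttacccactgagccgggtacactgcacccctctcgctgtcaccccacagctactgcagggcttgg
Slc23a2, downstream start, chr2:132145109-132145358, minus strand: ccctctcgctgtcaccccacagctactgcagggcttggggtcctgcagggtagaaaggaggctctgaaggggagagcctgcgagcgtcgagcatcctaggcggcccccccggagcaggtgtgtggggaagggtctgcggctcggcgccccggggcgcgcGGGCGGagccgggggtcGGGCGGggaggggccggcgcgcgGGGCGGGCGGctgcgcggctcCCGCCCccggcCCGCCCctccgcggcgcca

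The Slc4a3 window holds 2 GC boxes, with their left ends at -190 and -44 from the start site. The upstream Slc23a2 window holds no GC box but a CCAAT box on each strand, at -101 and -98, which overlap, and the downstream window holds 6 GC boxes between -91 and -19. Among 32851 windows of this length in the table, 32.7% hold a GC box and 33.8% a CCAAT box, so both motifs are common. Neither gene's windows hold the TATA box TATAAA, the CACGTG E-box, the NFAT core GGAAAA, the AAGGTCA half-site of estrogen-related receptors, a CArG box or a MEF2 site. These motifs stand in 12.4%, 6.02%, 20.4%, 4.08%, 1.47% and 2.92% of all windows. The sequence table lists windows for 121 of the 149 members.

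Slc4a3 encodes the anion exchanger AE3, which trades intracellular bicarbonate for chloride and is abundant in heart muscle. At 10 d it measured 43821, 45659, 50443 and 49126 in the 4 sham arrays and 38578, 32349.6, 35647 and 37034 in the 4 TAC arrays. All TAC arrays lay below all sham arrays. Slc4a3 fell by 0.40 on the log2 scale (SE 0.10, 95% interval -0.60 to -0.19, adjusted p = 0.0189).

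At 3 wk the Slc4a3 groups again did not overlap, with sham at 35215, 38619, 40629 and 38396 and TAC at 31906, 30134, 32139, 28016 and 31842. The change there was -0.31 (SE 0.09, adjusted p = 0.0543), just outside the call. With scan day as a block it was -0.34 (adjusted p = 0.282). It was called in 3 of 16 alternatives other than leaving out single arrays. At 48 h sham ranged from 33714 to 39179.5 and TAC from 29441.5 to 42229, and the change was -0.02 (SE 0.09). The 10 d sham arrays were the highest of the 6 groups, and 10 d TAC arrays lay within the range of the 48 h arrays. No scan day held arrays of 2 durations, so across durations the time after surgery and the day of scanning cannot be told apart. The 10 d call was lost when each array was centred on its median (-0.36, adjusted p = 0.0607) and without sham array 3, sham array 4 or TAC array 2 (adjusted p = 0.0588, 0.0562 and 0.0739).

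Slc12a5 encodes KCC2, the potassium-chloride cotransporter best known from neurons. At 10 d it measured 615, 1031, 981 and 1491 in sham and 696, 139, 111 and 274 in TAC. The groups overlapped in 1 TAC array, and 2 TAC arrays lay below the floor of 167.9, so the size of the change depends on that floor. Slc12a5 fell by 1.86 on the log2 scale (SE 0.45, adjusted p = 0.0156). Its intensity was above the limit for testing on 6 sham arrays and 0 TAC arrays, so it was tested only through the group where it is high, and its call is given as a description. With a floor at the 40th percentile the change was -0.76 (adjusted p = 0.0571), and the call was also lost without sham array 4, TAC array 2 or TAC array 3 (adjusted p = 0.0630, 0.0656 and 0.0632). At 3 wk sham measured 1079.5, 969, 427 and 1259 and TAC 375, 431, 615, 604 and 235, a change of -1.02 (SE 0.43, adjusted p = 0.173). Of the marker genes for neurons and Schwann cells 3 were tested and 0 were called, with a summed intensity of 3318 to 4287 in 10 d sham and 4368.5 to 4789.7 in 10 d TAC. The sum hides opposite directions, as the 3 changes at 10 d ranged from -0.65 to 0.63. Without overlap of the arrays, 1 of the 3 was higher and 1 lower in 10 d TAC, beside 16% of all genes without overlap. The part of these markers in the Slc12a5 values was not tested.

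The other carriers of inorganic ions gave no call. Slc12a7, a potassium-chloride cotransporter that regulates cell volume, measured 14864, 14999, 14578 and 15858 in 10 d sham and 15169, 15419, 12736 and 12778.5 in 10 d TAC, with overlap. Its change was -0.11 (95% interval -0.31 to 0.09), and 0.15 (-0.04 to 0.34) at 3 wk. Slc12a2, the sodium-potassium-chloride cotransporter NKCC1, changed by -0.10, 0.02 and 0.10 at 48 h, 10 d and 3 wk, with an SE of 0.21 to 0.22. Slc20a1, a sodium-phosphate cotransporter, had 929 to 1551 in 10 d sham and 1414 to 2074 in 10 d TAC, a difference of 0.46 (SE 0.21, adjusted p = 0.197). The other 4 tested members, Slc12a4, Slc4a1, Slc4a2 and Slc9a8, lay between 0.02 and 0.28 at 10 d and between -0.28 and 0.06 at 3 wk.

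Slc7a2 encodes a cationic amino acid transporter that takes up arginine and lysine. At 10 d it measured 971, 1215, 1246 and 1889 in sham and 389.7, 897, 668.5 and 647 in TAC. All 4 TAC arrays lay below all 4 sham arrays. Slc7a2 fell by 1.05 on the log2 scale (SE 0.26, 95% interval -1.59 to -0.51, adjusted p = 0.0197). At 48 h it measured 859.8 to 991 in sham and 851 to 1202 in TAC, and at 3 wk 936 to 1581 in sham and 797 to 1662 in TAC, with changes of 0.08 and 0.02 (SE 0.25). The test of the difference between the 10 d and 48 h effects gave -1.13 (SE 0.36, adjusted p = 0.243), and that between 3 wk and 10 d gave 1.07 (SE 0.36, adjusted p = 0.457). The 10 d call was lost without sham array 4 (-0.87, adjusted p = 0.0886), without TAC array 1 (-0.82, adjusted p = 0.0630) and when only the 2 groups compared were fitted (adjusted p = 0.0595).

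None of the other 15 amino acid carriers tested was called at any duration. Slc38a2, a sodium-coupled carrier of glutamine and other neutral amino acids, measured 4519.8, 2869, 2472 and 2996 in 48 h sham and 8014, 5065, 3717, 6285 and 3625.5 in 48 h TAC. The groups overlapped through sham array 1. Its difference was 0.70 (SE 0.22, unadjusted p = 0.00337, adjusted p = 0.347), then 0.43 (SE 0.23) at 10 d and 0.04 (SE 0.22) at 3 wk. Slc7a5, the large neutral amino acid transporter, and Slc3a2, the heavy chain with which it pairs, differed by 0.23 (SE 0.14) and 0.33 (SE 0.16, adjusted p = 0.252) at 3 wk, and by 0.02 and -0.20 at 10 d. Slc1a5, a glutamine exchanger, differed by -0.20, -0.06 and -0.13, and Slc38a10 by -0.08, -0.06 and 0.15, at 48 h, 10 d and 3 wk. The other 10 tested members (Slc1a2, Slc1a4, Slc3a1, Slc38a4, Slc38a5, Slc6a9, Slc6a18, Slc6a20b, Slc7a7 and Slc7a9) lay between -0.34 and 0.25 at 48 h, -0.99 and 0.61 at 10 d, and -0.77 and 0.30 at 3 wk, and 0 of them had an unadjusted p under 0.05.

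Slc23a2 encodes a sodium-coupled transporter of vitamin C. At 10 d it measured 1515, 1759.9, 1924 and 1482 in sham and 2225, 2570.1, 2837 and 2143 in TAC. All TAC arrays lay above all sham arrays. Slc23a2 rose by 0.55 on the log2 scale (SE 0.15, 1.46-fold, adjusted p = 0.0283). At 48 h both groups were higher than at the later times, with sham from 3347 to 3774 and TAC from 2834 to 3847, and at 3 wk sham ranged from 1554 to 2526 and TAC from 1769 to 2324. The changes there were -0.06 and 0.00 (SE 0.14). The test of the 10 d against the 48 h effect gave 0.61 (SE 0.20, adjusted p = 0.254). The 10 d call held within the main scan day (0.61, adjusted p = 0.0182) and was lost without sham array 1, sham array 4, TAC array 2 or TAC array 3 (adjusted p = 0.0807, 0.0915, 0.0811 and 0.101).

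Slc6a8 encodes the creatine transporter, which supplies muscle with the creatine of the phosphocreatine energy buffer. At 3 wk it measured 6443.5, 7467, 6272 and 6946 in sham and 9588.5, 11324, 8469, 12298.5 and 9840.1 in TAC. The lowest TAC array exceeded the highest sham array. Slc6a8 rose by 0.59 on the log2 scale (SE 0.14, 1.51-fold, 95% interval 0.32 to 0.87, adjusted p = 0.0100). At 48 h sham measured 6923 to 9536 and TAC 7411 to 12598, and at 10 d sham 8145 to 9155 and TAC 8123 to 11803, with changes of 0.19 and 0.13 (SE 0.14). A further Slc6a8 probe set lay below the floor on all arrays and was not tested.

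The Slc6a8 call held without each of the 9 arrays of its groups in turn. It did not hold when scan day was taken into account: with scan day as a block the change was 0.51 (adjusted p = 0.272), and within the main 3 wk scan day, which has 2 sham and 3 TAC arrays, it was 0.51 (adjusted p = 0.271). The other 2 TAC arrays, 4 and 5, were scanned on a day without sham arrays, so both fits rest on the main scan day for this change. Without the 2 sham arrays that carry no scan day the change was 0.58 (adjusted p = 0.0855). Under these settings 0 members were called at 3 wk. Over all 5564 genes there were 13 calls with the block (0.234%), 23 within the main scan day (0.413%) and 107 without the arrays of unknown scan day (1.92%). The test of the 3 wk against the 48 h effect of Slc6a8 gave 0.40 (SE 0.19, adjusted p = 0.430).

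Slc6a6, the taurine transporter of the same family, had 6547, 6303, 7848 and 6695 in 3 wk sham and 6564, 9451.5, 9341, 9899 and 10262 in 3 wk TAC. The groups overlapped through 1 TAC array. The difference was 0.40 (SE 0.16, adjusted p = 0.144), and a second probe set of the gene gave 0.32 at 3 wk but the opposite sign at 10 d (0.37 against -0.05).

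Slc22a12 encodes a urate exchanger known from the kidney. At 3 wk it measured 1732, 1475, 1968 and 2034.5 in sham and 1105, 1341.5, 554, 1076 and 326 in TAC. The groups did not overlap. Slc22a12 fell by 1.20 on the log2 scale (SE 0.32, adjusted p = 0.0274). The sham arrays of the other durations measured 781 to 1328, below all 4 of the 3 wk sham arrays. With scan day as a block the change was -0.86 (adjusted p = 0.440), and the call was also lost without 3 of the 4 sham arrays and without TAC array 3 or 5 (adjusted p from 0.0529 to 0.0805). It was lost as well without a filter, with array weights and with only the 2 groups compared (adjusted p = 0.0523, 0.0516 and 0.117).

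Slc23a3, a relative of the vitamin C transporters, measured 8270.5, 7597, 8883 and 7881 in 3 wk sham and 7946, 4816, 4297, 3241 and 3339.6 in 3 wk TAC. TAC array 1 lay within the sham range and the other 4 below it. The lowest values were those of TAC arrays 4 and 5, which were scanned on a day without sham arrays. Slc23a3 fell by 0.87 on the log2 scale (SE 0.24, adjusted p = 0.0378), while its second probe set gave -0.18. With both probe sets averaged the change was -0.52 (adjusted p = 0.0828), with scan day as a block -0.58 (adjusted p = 0.503), and without all but 1 of the 9 arrays, left out singly, the adjusted p was above 0.05.

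**Figure D2:**
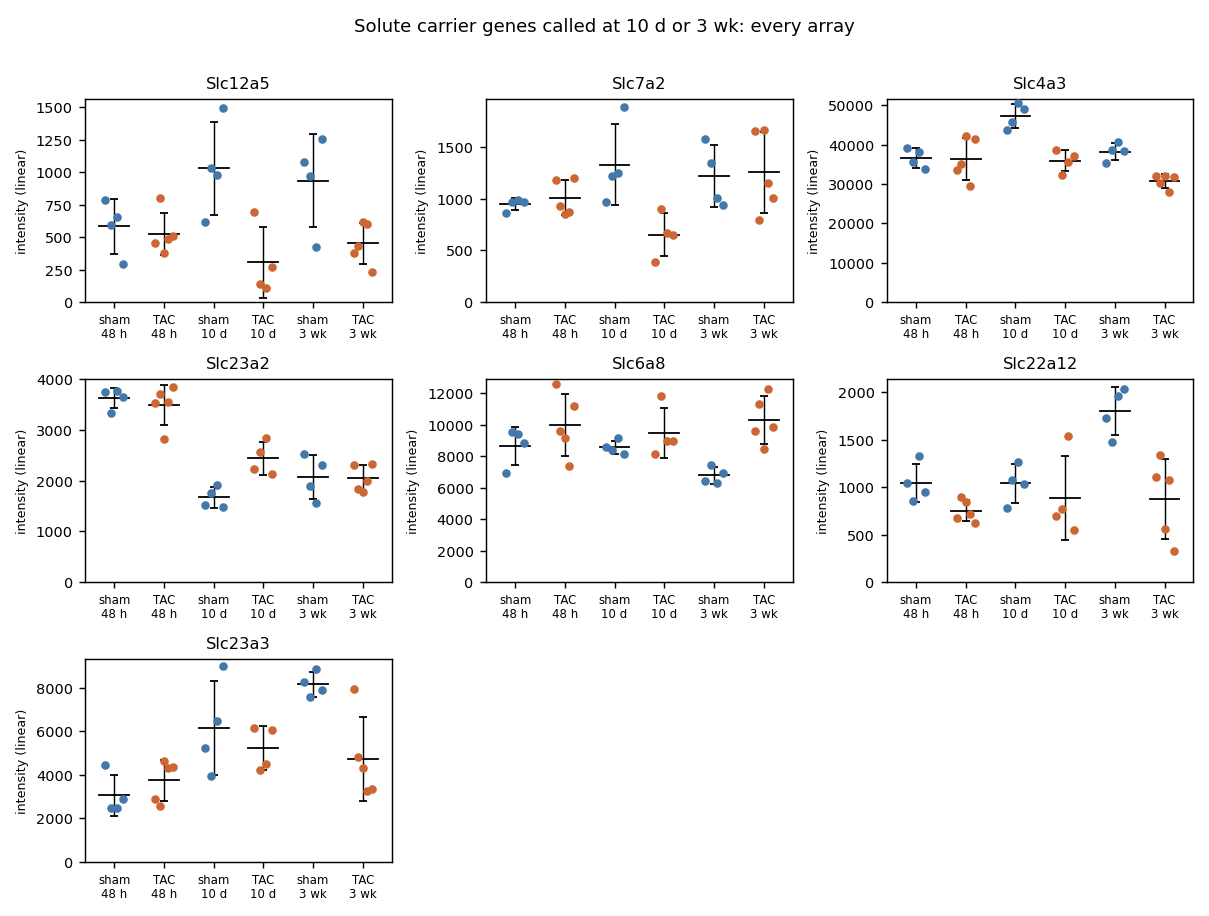
Deposited linear intensity (vertical axis, from 0) of the 7 called solute carrier genes in every array of the 6 groups, sham in blue and TAC in orange, with bars for the group mean and SD. The groups separate fully for Slc7a2, Slc4a3 and Slc23a2 at 10 d and for Slc6a8, Slc22a12 and Slc4a3 at 3 wk, and overlap for Slc12a5 at 10 d and Slc23a3 at 3 wk.

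In the plot of called genes, sham levels also differed between durations for some genes, such as Slc23a2 and Slc23a3, a difference that was not tested. Among the carriers of organic ions that were not called, Slc10a3, an orphan relative of the bile acid carriers, measured 1816, 1410.2, 1681 and 1571.5 in 10 d sham and 2456, 2259, 1993 and 2099 in 10 d TAC. At 3 wk it measured 1569, 1803.5, 1368 and 1068 in sham and 1987, 1936, 2044, 2245 and 2143 in TAC. The groups did not overlap at either time, with differences of 0.44 (SE 0.19, adjusted p = 0.177) and 0.54 (SE 0.18, adjusted p = 0.0834). Slc22a5, the carnitine transporter OCTN2, differed by -0.50 (SE 0.20, unadjusted p = 0.0187, adjusted p = 0.674) at 48 h, -0.38 at 10 d and -0.19 at 3 wk. Slc16a1, the lactate transporter MCT1, differed by 0.18, -0.26 and 0.21, with intervals that include 0.

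Of the other 16 carriers of organic ions tested, 0, 4 and 1 had an unadjusted p under 0.05 at 48 h, 10 d and 3 wk. They were Slc10a6, Slc16a8, Slc19a1, Slc22a17, Slc22a18, Slc44a1, Slc44a2, Slc44a4, Slc48a1, Slc5a6, Slc66a2, Slc6a13, Slc6a2, Slc6a4, Slco3a1 and Slco5a1, and they lay between -1.17 and 0.67 at 10 d and between -0.97 and 0.36 at 3 wk. Singled out after its values were seen, Slc19a1, the reduced folate carrier, read by a probe set that the array maker marks as matching a gene family, measured 1794, 1768, 1957 and 794 in 10 d sham and 1082, 424, 526 and 1259 in 10 d TAC. The groups overlapped through sham array 4, and the difference was -1.01 (SE 0.31, adjusted p = 0.0588). A block for scan day made it a call (-1.26, adjusted p = 0.0298). Slc5a6, the sodium-dependent multivitamin transporter, also chosen after its values were seen, measured 1139, 1678, 1404 and 1361 in 10 d sham and 944, 1226, 471 and 761 in 10 d TAC, a difference of -0.78 (SE 0.26, adjusted p = 0.0793).

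The mitochondrial carriers gave no call at any duration. Their median log2 change was -0.02 at 48 h, -0.01 at 10 d and -0.09 at 3 wk over 16 genes, and the sign at 10 d turned to 0.02 when arrays were centred on their medians. With scan day as a block and within the main scan day, which leaves out 1 TAC array at 10 d, the median was -0.12 at 10 d and -0.01 at 3 wk. Slc25a4, the ATP-ADP exchanger of heart and skeletal muscle, measured 153185, 100623, 120519 and 147293 in 3 wk sham and 123407, 100339, 108878, 101288 and 111128 in 3 wk TAC. The groups overlapped, and the difference was -0.24 (SE 0.20, 95% interval -0.65 to 0.16), after 0.01 at 48 h and 0.11 at 10 d.

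Slc25a5, the second ATP-ADP exchanger, differed by -0.05, 0.02 and -0.26 (SE 0.13) at 48 h, 10 d and 3 wk by the probe set that represents it, and its 3 probe sets disagreed in sign at 48 h. This probe set too is marked as matching a gene family, so it may not tell the exchangers apart. Slc25a3, the phosphate carrier, measured only 257 to 1683 over all arrays by its tested probe set and differed by 0.79, -0.33 and -0.57, with an SE of 0.44 to 0.47.

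Slc25a11, which exchanges malate for oxoglutarate in the malate-aspartate shuttle, measured 43772, 38289, 41289 and 33844 in 3 wk sham and 26482, 29894, 28776, 26217 and 32211 in 3 wk TAC. No TAC array reached the lowest sham array. The difference was -0.45 (SE 0.14, 95% interval -0.74 to -0.16, adjusted p = 0.0605). It was called in 2 of 16 alternatives other than leaving out single arrays. These were the stricter filter on dim probe sets (adjusted p = 0.0457) and the fit of only the 2 groups compared (adjusted p = 0.0436). Over the 16 the adjusted p reached 0.272. With single arrays left out it was called in 0 of 9 fits (adjusted p from 0.0584 to 0.154). With scan day as a block, no member was called at 3 wk. At 10 d the difference was 0.05 (SE 0.15) and at 48 h -0.13 (SE 0.14).

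Slc25a25, a calcium-regulated carrier of ATP-magnesium and phosphate, measured 2986, 3647, 2331 and 3114 in 10 d sham and 5151, 4626, 5131 and 5075 in 10 d TAC. The groups did not overlap, yet the difference of 0.74 had an SE of 0.40 (adjusted p = 0.297), since the gene ranged from 1262 to 7702 within the 3 wk sham arrays and the fit shares 1 spread per probe set over all groups. With only the 10 d arrays fitted it was called (adjusted p = 0.00784). Slc25a39, a carrier for mitochondrial glutathione import, differed by -0.14 (SE 0.07) at both 48 h and 10 d and by -0.08 at 3 wk, with TAC below sham on all arrays at 48 h.

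The other 10 tested carriers (Slc25a1, Slc25a10, Slc25a15, Slc25a17, Slc25a28, Slc25a36, Slc25a44, Slc25a45, Slc25a47 and Slc25a51) lay between -0.25 and 0.75 at 48 h, -0.50 and 0.27 at 10 d, and -0.52 and 0.76 at 3 wk. Of these, Slc25a28, the iron carrier mitoferrin-2, had the smallest p at 10 d, with 3341, 2129.7, 4148 and 3085 in sham and 2265, 2133, 2151.5 and 2166 in TAC. The groups overlapped through sham array 2, and the difference was -0.50 (SE 0.16, adjusted p = 0.0705), followed by -0.36 (SE 0.15, adjusted p = 0.192) at 3 wk.

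**Figure D3:**
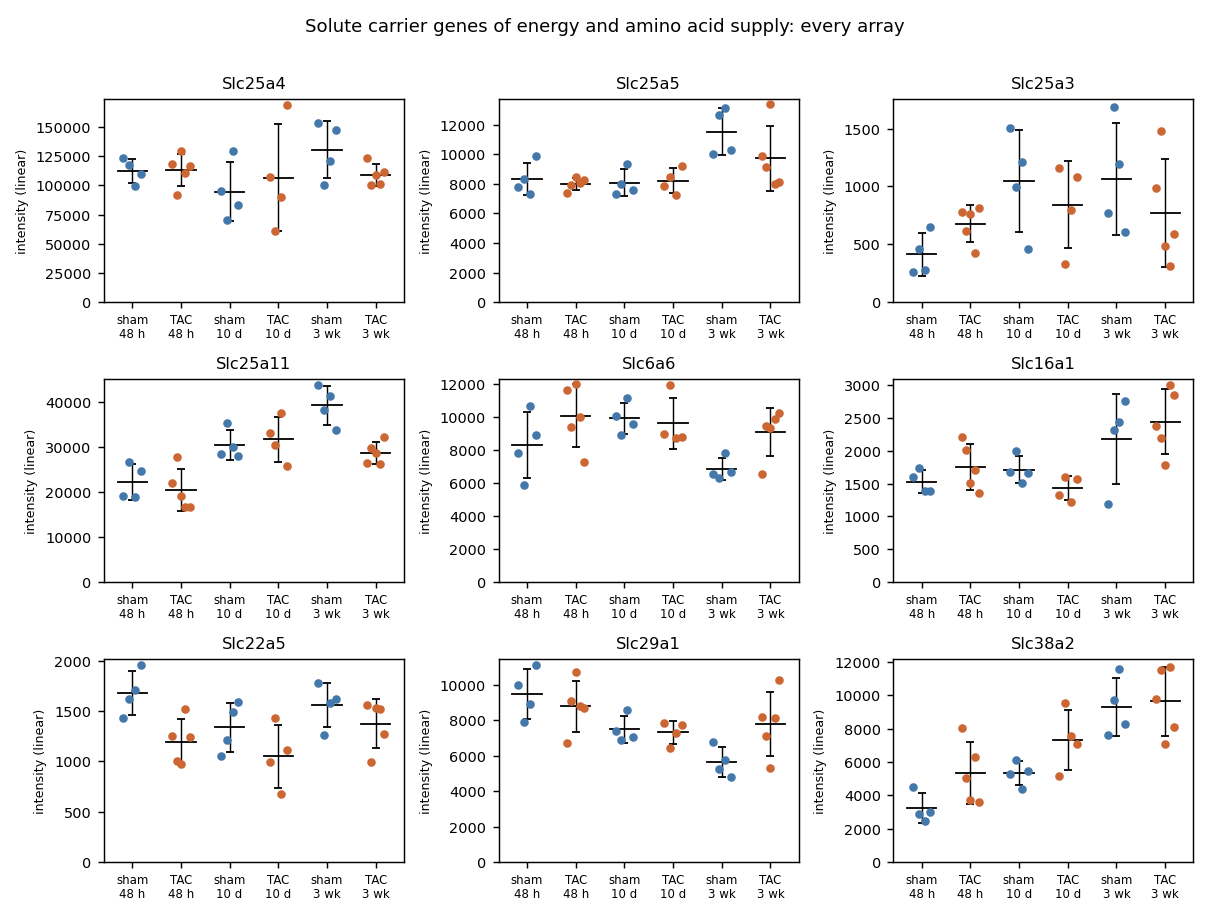
Deposited linear intensity (vertical axis, from 0) of 9 solute carrier genes of energy and amino acid supply in every array, sham in blue and TAC in orange, with bars for the group mean and SD. Only Slc25a11 at 3 wk shows groups that do not overlap among these 9 genes, and none of them was called at any duration.

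The plot of carriers of energy and amino acid supply includes Slc29a1, the equilibrative nucleoside transporter that takes up adenosine. It measured 6788, 5243, 5769 and 4819.9 in 3 wk sham and 8174, 7086, 5323, 8142 and 10280.4 in 3 wk TAC, with overlap through TAC array 3. The difference was 0.44 (SE 0.15, adjusted p = 0.0847), after -0.11 at 48 h and -0.03 at 10 d. A second probe set gave 0.26 at 3 wk, but 0.30 at 48 h, the opposite sign, and -0.54 at 10 d. Slc35b1, a nucleotide carrier of the endoplasmic reticulum, differed by 0.16, 0.19 and -0.10 (SE 0.13) at 48 h, 10 d and 3 wk. The other 7 carriers of nucleotide sugars or their relatives, Slc35a1, Slc35b2, Slc35c2, Slc35d1, Slc35e1, Slc35e4 and Slc35g3, lay between -1.07 and 0.45 at 10 d and between -0.37 and 0.84 at 3 wk, and 2 and 1 of them had an unadjusted p under 0.05.

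None of the metal ion carriers was called. Slc39a7, which releases zinc from the endoplasmic reticulum, measured 3909.7, 4914, 4244 and 4882 in 48 h sham and 5986, 5064, 5361, 6554 and 5431 in 48 h TAC. TAC lay above sham on all arrays, with a difference of 0.34 (SE 0.13, adjusted p = 0.607). Slc30a4, a zinc exporter, lay below sham on all 48 h TAC arrays, with 713 to 959.5 against 407 to 666, a difference of -0.58 (SE 0.28, adjusted p = 0.808).

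Slc30a5, which moves zinc into the Golgi, measured 582, 875, 489 and 398 in 10 d sham and 1028, 909, 892 and 1259 in 10 d TAC, without overlap, a difference of 0.85 (SE 0.39, adjusted p = 0.205). It was above the limit for testing on 10 TAC and 2 sham arrays, so it was tested mainly through TAC arrays and is given as a description. Slc30a3 and Slc39a1 differed by -0.38 and 0.17 at 10 d and by 0.15 and 0.07 at 3 wk. The other 8 (Slc11a1, Slc11a2, Slc30a9, Slc31a1, Slc39a3, Slc39a4, Slc39a9 and Slc41a1) lay between -0.55 and 0.39 at 10 d and between -0.29 and 0.72 at 3 wk. Slc41a1, a magnesium carrier singled out after its values were seen, measured 2936, 3022, 2999 and 2910.3 in 3 wk sham and 2404, 2417, 2019.7, 2881 and 2507 in 3 wk TAC. The groups did not overlap, and the difference was -0.29 (SE 0.13, adjusted p = 0.208). The highest of the 8 at 3 wk, singled out after its values were seen, was Slc11a1, a metal carrier of macrophage phagosomes, with 359.6, 891, 631.5 and 1046 in sham and 1292, 948.5, 912, 1089.7 and 1404 in TAC. The groups overlapped through sham array 4, and the difference was 0.72 (SE 0.25, adjusted p = 0.0982).

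Among the 5 sugar carriers Slc50a1, a sugar transporter of the SWEET family, measured 4485, 4449, 3831 and 4473 in 3 wk sham and 5410.1, 5096, 5108.5, 5342 and 5506 in 3 wk TAC. The groups did not overlap, and the difference was 0.30 (SE 0.10, adjusted p = 0.0875). Slc2a8, an intracellular hexose transporter, differed by -0.37 (SE 0.15, adjusted p = 0.156) at 10 d, and Slc2a3, Slc37a4 and Slc5a11 lay between -0.13 and -0.02 at 10 d and between -0.56 and 0.06 at 3 wk. The scaffold proteins Slc9a3r1 and Slc9a3r2, which tether exchangers to the cytoskeleton, differed by 0.08 and 0.06 at 10 d and by -0.24 (SE 0.17) and -0.30 (SE 0.15) at 3 wk. The third, Slc4a1ap, differed by 0.62 at 48 h, 0.04 at 10 d and -0.07 at 3 wk.

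The effect of TAC on solute carriers was not shown to differ between durations. For each of the 3 differences between durations 0 of 95 members were called, against backgrounds of 0.108% (10 d minus 48 h), 0.018% (3 wk minus 10 d) and 0% (3 wk minus 48 h) of all genes. Unadjusted p-values under 0.05 numbered 10, 8 and 9 of 95, beside 10.9%, 8.36% and 11.6% of all genes. Only Slc10a3, Slc12a5, Slc25a28 and Slc4a3 had an unadjusted p under 0.05 at both 10 d and 3 wk, 4 of 95 (4.21%) beside 421 of 5564 genes (7.57%), and each had the same sign at both times. Of the 4, Slc12a5 was tested only through sham arrays, where it is high.

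The genes that work beside the solute carriers form small lists, whose called shares stand beside 5.03% of all genes at 10 d and 4.82% at 3 wk. Of 11 tested carriers without an Slc symbol, 0 were higher and 2 lower at 10 d (18.2%): Ank, which exports pyrophosphate, fell by 0.47 on the log2 scale (SE 0.11, adjusted p = 0.0116) and Vdac3, a channel of the outer mitochondrial membrane, fell by 0.35 (SE 0.10, adjusted p = 0.0393). At 3 wk 1 of the 11 (9.09%), the phosphate exporter Xpr1, rose by 0.73 (SE 0.14, adjusted p = 0.00289). Of 16 tested partner and regulator proteins, 1 was called at 10 d (6.25%) and 2 at 3 wk (12.5%). Stk39, the kinase that phosphorylates cation-chloride cotransporters, fell by 0.50 at 10 d (SE 0.14, adjusted p = 0.0320). At 3 wk Wnk1, the kinase upstream of it, rose by 0.48 (SE 0.10, adjusted p = 0.00533), and Car4, a membrane carbonic anhydrase, fell by 0.52 (SE 0.14, adjusted p = 0.0284). Of 3 tested aquaporins 0 were called at 10 d and 1 at 3 wk (33.3%), where Aqp8 rose by 1.55 (SE 0.39, adjusted p = 0.0194) with overlap of the sham and TAC arrays. Whether the calls of these 3 lists hold under the alternative fits was not examined. With scan day as a block, only 0.234% of all genes were called at 3 wk.

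Some markers of other cell types differed between TAC and sham on the same arrays. Of 10 tested macrophage markers 8 were called higher at 10 d and 4 at 3 wk, of 11 fibroblast markers 5 and 6, and of 10 endothelial markers 4 and 1, beside calls in either direction for 5.03% of all genes at 10 d and 4.82% at 3 wk. At both times 0 of them were called lower. Below 0 at 10 d and 3 wk lay 0 and 1 macrophage, 2 and 4 fibroblast, and 3 and 3 endothelial markers. Whether the marker calls hold under the alternative fits was not examined. Of 9 cardiomyocyte markers 0 were higher and 1 was lower at 10 d, and 0 were called at 3 wk, where all 9 lay below 0 with a median of -0.33. The summed macrophage intensity was 47140 to 49285 in 10 d sham and 68699 to 74443 in 10 d TAC, and 46171 to 51609.9 and 51805.5 to 70963 at 3 wk. The summed fibroblast intensity was 127000.3 to 139323 in 10 d sham and 186698.5 to 241153 in 10 d TAC, and 133103 to 179297 and 176907 to 272431 at 3 wk. At 48 h 0 genes of these 4 lists were called. No measured macrophage, fibroblast, endothelial or cardiomyocyte marker was at the floor on all arrays, and their part in the solute carrier values was not tested.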

How the data were processed

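The deposited values, per the series value table, are intensities made by the authors on the MG_U74Av2 array, with 1 linear value for each probe set on each array. Each array's mean after trimming 2% at each end was 2501.81 to 2502.2, so the arrays share a scale; no source used here names the summarisation method. The median intensity of an array was 741 to 1031, and r across probe sets was 0.922 to 0.961 within groups and 0.878 to 0.965 between them. The number of arrays limits the precision. Scan days came from the array description text, which gives none for 2 arrays. TAC arrays 4 and 5 at 3 wk, and TAC array 4 at 10 d, were scanned on days without sham arrays. The fit with a scan day block therefore gives the same changes as the main scan day alone.

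Values were used as deposited, raised to a floor at the 20th percentile (167.9), and put on the log2 scale. After 66 control probe sets were left out, those above 880.1 in at least 4 arrays were kept (7297). One model over the 26 arrays, with a mean for each of the 6 groups, was fitted in limma 3.58.1 (R 4.3.3) with lmFit and eBayes with an intensity trend. Changes are TAC minus sham, on the log2 scale, and all p-values and adjusted p-values in the text come from this model or, where stated, from an alternative fit in limma. Each gene was represented by its tested probe set of highest mean.

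Gene names came from the array's annotation table, and all 180 probe sets matched RefSeq by symbol. Promoters are RefSeq's, on GRCm38.p6. Genes named were every called member, the 2 brightest tested members of each class, carriers known in heart, where measured, and at each duration the 4 uncalled members of largest change whose groups did not overlap. The members, classes, lists and tests were chosen with earlier results of these data known. Replicate numbers are not stated to pair samples, and deviations of equally numbered sham and TAC arrays correlated at -0.131 to 0.0324, so no pairing was used. Alternatives covered scaling, floor, filter, variance model, scan day, replicate number, choice of probe set and each array left out.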

Additional observations from a re-analysis of the deposited data

Results flagged for a closer look

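Among 216 groups of 4 or 5 arrays of the 36 named genes, 9 held an array farther from the rest than Dixon's 95% critical value allows, where chance flags about 1 in 20. Slc23a2 was at 11.47 on the log2 scale in 48 h TAC array 3, with the others from 11.79 to 11.91. Slc6a6, the taurine transporter, was flagged in 2 groups. It was at 13.54 in 10 d TAC array 2 (others 13.09 to 13.13) and at 12.68 in 3 wk TAC array 1 (others 13.19 to 13.33), the array through which the 3 wk groups overlapped.

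Slc25a25 was at 12.18 in 10 d TAC array 2 (others 12.31 to 12.33), and Slc2a8 at 12.19 in 10 d TAC array 1 (others 11.73 to 11.76). In 10 d sham array 3, Slc38a10 was at 12.79 (others 13.04 to 13.09). At 3 wk, Slc39a7 was at 11.93 in sham array 2 (others 11.61 to 11.64), Slc50a1 at 11.90 in sham array 3 (others 12.12 to 12.13), and Slc3a2 at 11.98 in TAC array 3 (others 12.40 to 12.55). None of these arrays belongs to a group in which its gene was called.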

How the results depend on the processing

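At 48 h the count of called members stayed at 0 under all 24 alternatives. At 10 d the main count of 4 ranged from 1 to 5 with single arrays left out (1 without sham array 4, which was Slc19a1 and none of the 4, and 5 without sham array 2 or TAC array 4), and was 2 with the filter at the 70th percentile and 7 with array weights, which added Slc11a2, Slc5a6 and Slc19a1. At 3 wk the main count of 3 ranged from 1 to 5 with single arrays left out (1 without sham array 1, 3 or 4 or TAC array 5, 5 without TAC array 1). It was 5 with median centring, 1 without a filter, and 0 with a scan day block, within the main scan day and without the 2 arrays of unknown scan day, an alternative chosen after seeing the data. These 3 fits use fewer arrays. The replicate block left the counts at 0, 4 and 3, with Slc4a3 called at 3 wk (adjusted p = 0.0303) and Slc22a12 not (adjusted p = 0.0585). For the 3 differences between durations the count stayed at 0 under the alternatives run. Over the named genes, 2506 of 2565 alternative values kept their side of the threshold, 46 lost a call, 13 gained one and 0 reversed a called change. Only 7 of the 108 named changes were called, and all 46 losses fall on these. With single arrays left out, the call held in 9 of 9 fits for Slc6a8, 4 of 9 for Slc22a12 and 1 of 9 for Slc23a3. At 10 d it held in 6 of 8 for Slc7a2, 5 of 8 for Slc12a5 and Slc4a3, and 4 of 8 for Slc23a2. Of the 2565 values 131, all of uncalled changes, had the opposite sign to the reported value, across 39 of the 108 named changes; Slc16a1 at 3 wk, for example, ranged from -0.18 to 0.27 over the alternatives other than leaving out single arrays, and Slc30a4 at 3 wk was -0.09 with the scan day block. Without a filter Slc10a2 was also called at 10 d (-0.13, adjusted p = 0.0441), with 23 of 26 arrays at the floor.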
